A study of Mus musculus with 4 samples.

Results

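The cytosolic ribosomal protein genes were described across dividing cells, neurons and glia of the postnatal mouse forebrain. They were taken by symbol: Rpl or Rps followed by a digit, together with Rpsa, Rplp0, Rplp1 and Rplp2, without symbols that carry -ps and without the Rps6 kinases. The rule found 86 of the 32285 genes in the matrices, and no measured value entered it. The cells were tdTomato-positive cells sorted from the forebrain of C57BL/6 mice at postnatal day 5 and profiled by single-cell RNA sequencing with a 3′ chemistry. All mice carried NestinCreERT2, a tamoxifen-dependent Cre driven in neural progenitor cells, and the tdTomato reporter, and all received tamoxifen at the midfetal stage. Control mice were NestinCreERT2/tdTomato/Chd8+/+ and mutant mice NestinCreERT2/tdTomato/Chd8+/F, in which Cre removes loxP-flanked exons of 1 allele of *Chd8*, a chromatin remodeler gene. There were 2 libraries of each genotype, each pooled from the cells of 3 mice, so the spread between mice cannot be seen and the library is the replicate.

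Ribosomal proteins coat the ribosomal RNA of the small subunit (Rps genes) and of the large subunit (Rpl genes), and nearly every one is present once per ribosome, so their synthesis has to be balanced. Their mRNAs begin with a run of pyrimidines, the 5′ terminal oligopyrimidine (TOP) tract, through which mTOR and Larp1 govern their translation. Demand for new ribosomes is high in cells that grow before each division. Some genes have a paralogue that can take their place in the ribosome, such as *Rpl22l1* for *Rpl22* and *Rps27l* for *Rps27*.

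Of the 86 genes, 83 had enough counts to be tested in each comparison below. The other 3 were *Rpl10l*, with 0 UMIs (unique molecular identifiers, tags that mark each captured transcript molecule) in the 17623 cells kept, *Rpl39l*, with 39 UMIs, and *Rpl3l*, with 21. A count of 0 allows up to 3 counts, so *Rpl10l* was not detectable at this depth. Their broadly expressed partners *Rpl10*, *Rpl39* and *Rpl3* were found in all 3 classes of cells. *Rpl7l1* (16630 UMIs) and *Rps19bp1* (10293 UMIs, a binding protein of Rps19) fit the rule by symbol but are not known as constituents of the ribosome. *Rps27rt* (6005 UMIs) is a near-identical copy of *Rps27*, and reads of such copies and of processed pseudogenes can be split or lost in counting, so its values are uncertain.

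The transcription start sites of 5 of the genes named in the results are shown, since the pyrimidine run at the start is the feature this family is known for. The partners of a paralogue pair can differ there. Each run of letters holds 10 bases before and 20 bases from the annotated start, 5′ to 3′ on the gene's strand, from RefSeq on GRCm38.p6, and the capitals mark the longest run of C and T. 
Rps6 (chr4:86857348-86857377, minus strand): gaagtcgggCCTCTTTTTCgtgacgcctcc
Rpl38 (chr11:114668570-114668599, plus strand): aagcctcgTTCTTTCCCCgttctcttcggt
Rps27 (chr3:90213629-90213658, minus strand): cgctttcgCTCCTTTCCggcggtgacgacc
Rps27l (chr9:66946076-66946105, plus strand): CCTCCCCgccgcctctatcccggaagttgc
Rpl22l1 (chr3:28805498-28805527, plus strand): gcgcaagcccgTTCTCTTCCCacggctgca
In *Rps6*, *Rpl38*, *Rps27* and *Rpl22l1* the run covers or abuts the annotated start, whereas in the first annotated start of *Rps27l* it lies upstream of the start. *Rpl22*, the partner of *Rpl22l1*, is not shown. Its longest run between 20 bases before and 30 bases after a start was 5 bases, against 10 in *Rpl22l1*. Other genes that lead comparisons below are not shown either, and several had shorter runs than the 5 shown. In the same span the longest run was 3 bases in *Rpl10* and *Rpl41*, 4 in *Rps28*, 6 in *Rps2*, 7 in *Rpsa* and 14 in *Rpl4*.

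Promoter windows were found for 66 of the 86 genes (78 windows of 250 bases before to 50 after a start). A run of 7 or more C or T between 20 bases before and 30 bases after the start was present in 43 of the 66 genes (65.2%), against 31.9% of 27025 genes and 31.9% of 69 genes for mitochondrial ribosomal proteins, which serve the separate ribosome of that organelle. A C at the start followed by 4 bases of C or T, the strict form of the TOP tract, was present in 14 (21.2%), against 3.01% of all genes and none of the mitochondrial ones. CCGGAAGT, on either strand, the motif of ETS factors, was in 12 (18.2%) against 4.31% of all genes, and AAGATGGC, on either strand, the core of the YY1 motif, in 6 (9.09%) against 3.19%. The corresponding shares of the mitochondrial ribosomal protein genes were 17.4% for both motifs. These are matches of letters in windows and not sites shown to be bound.

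The matrices held between 46274374 and 79328841 UMIs over 6107 to 7279 barcodes, and a barcode was kept if it had from 2000 up to 40000 UMIs, 1000 genes or more and no more than 10% of its UMIs from mitochondrial genes (2973 to 5710 cells per library). Pairs of libraries shared 8 to 21 barcodes, of which 2 to 15 were kept. *Chd8* was counted at 61.7, 89.8, 68.7 and 94.9 CPM (counts per 1e6 UMIs) in control replicates 1 and 2 and mutant replicates 1 and 2, and because 3′ tags can lie outside the deleted exons, these values do not check the deletion. The matrix headers named Cell Ranger 7.0.0 for both libraries of replicate 1 and 5.0.1 for both of replicate 2, and *Xist* was under 1 CPM in the former and 1633 and 1749 CPM in the latter. Software version, *Xist* level and replicate number therefore cannot be told apart, while each genotype has 1 library of each kind. The ribosomal protein genes took 8.23% (control) and 8.58% (mutant) of UMIs in replicate 1 and 10.8% and 11.6% in replicate 2, so levels are compared below within libraries, and values within each replicate number are given beside them. Whether the versions counted intronic reads alike is not given in the sources used here, and it would change the total on which these shares rest.

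Clustering, from which the ribosomal protein genes were left out, gave 31 clusters, of which 30 were named from marker genes and 608 cells in 1 cluster, with *Egfr* and *Dll1* among its leading genes, stayed unnamed. The classes compared were 2585 dividing cells, 4175 neurons and 8140 glia, of which 5147 were astrocytes. Among the markers that named the clusters, *Mki67* was at 684 CPM in dividing cells, 42.5 in neurons and 13.7 in glia. *Slc1a3* was at 2921 CPM in glia and 1307 in dividing cells, and *Gad2* at 444 CPM in neurons and 131 in dividing cells. *Pdgfra*, of the OPC list, was at 315 CPM in dividing cells and 288 in glia, and *Ermn*, of the oligodendrocyte list, at 2.08 and 0.92. Because the names rest on these lists, the levels are no independent check of the labels. *Mog*, a marker of mature oligodendrocytes, was at only 3.50 CPM in glia. The 559 cells of the cluster with *Mbp*, *Enpp6* and *Bcas1* among its leading genes are called committed oligodendrocyte precursor cells (OPCs) and oligodendrocytes. The summed levels of 7 microglial markers lay between 17.2 and 26.7 CPM in dividing cells, 6.07 and 22.2 in neurons and 16.7 and 31.8 in glia. Those of 8 markers of pericytes and mural cells were higher in glia (47.4 to 63.0 CPM) than in dividing cells (11.07 to 33.8) and neurons (3.31 to 17.7). Those of 5 red blood cell genes were at 9.36, 297.5, 70.7 and 16.0 CPM in glia and between 3.53 and 18.9 CPM in the other classes, and markers of endothelial cells, fibroblasts and border macrophages summed to at most 23.2 CPM. *Malat1*, a nuclear RNA, took 2.26% to 3.24% of UMIs in glia, 1.59% to 2.71% in neurons and 1.04% to 1.97% in dividing cells, and was highest in glia of each library. The part of other cell types and of nuclear RNA in the differences below was not tested.

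The share of all UMIs that came from the 86 genes was used as a measure of the whole family. In dividing cells it was 9.52% and 11.9% in the control libraries of replicates 1 and 2 and 9.93% and 12.2% in the mutant ones, and values are given in this order of libraries from here on. In neurons it was 8.42%, 12.3%, 9.13% and 12.9%. In glia it was 7.15%, 10.3%, 7.59% and 10.9%, the lowest of the classes in each library. Dividing cells exceeded glia by 1.90 percentage points on average (SD 0.537, higher in 4 of 4 libraries, two-sided exact permutation p = 0.125, the smallest that 4 libraries allow), by 2.38 and 2.34 points in replicate 1 and by 1.55 and 1.34 points in replicate 2. Neurons exceeded glia by 1.70 points (SD 0.358, 4 of 4 libraries, exact permutation p = 0.125). Both differences depended on the weight of the cell types: with types weighted equally they were 0.109 points (SD 1.16, higher in 2 of 4 libraries) and −0.0959 points (SD 0.479, higher in 1 of 4). For dividing cells and neurons the direction was not the same in all libraries: the difference was 1.11 and 0.799 points in the libraries of replicate 1 and −0.42 and −0.68 points in those of replicate 2, with a mean of 0.201 (SD 0.884, exact permutation p = 0.625). It was 0.591 points (4 of 4 libraries) when cells were limited to 5% mitochondrial UMIs, and 0.754 (3 of 4) when a cluster of *Eomes*-expressing precursors, here counted with the neurons, was counted as dividing. In control replicate 2 the median mitochondrial share was 5.12% in dividing cells and 5.18% in neurons. The 5% limit thus left out most of these cells, whereas in the libraries of replicate 1 the medians were 1.89% to 2.30%.

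These shares are per UMI and not per cell. Dividing cells were the largest in RNA content, with a median of 15844 to 17682 UMIs per cell against 6791 to 7303 in neurons and 11714 to 12921 in glia. The mean number of ribosomal protein UMIs per cell was accordingly 1751 to 2118 in dividing cells, 686 to 1112 in neurons and 961 to 1321 in glia, and the ranges of the classes do not overlap between dividing cells and the others. When only cells of 5000 to 15000 UMIs were compared, neurons exceeded dividing cells in 3 of 4 libraries (dividing minus neurons −0.901 points, SD 1.18), and dividing cells exceeded glia in 3 of 4 (1.29 points, SD 1.07). Single cells spread widely within a class: the 5th and 95th percentiles in glia of control replicate 1 were 1.76% and 14.8%.

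**Figure D1:**
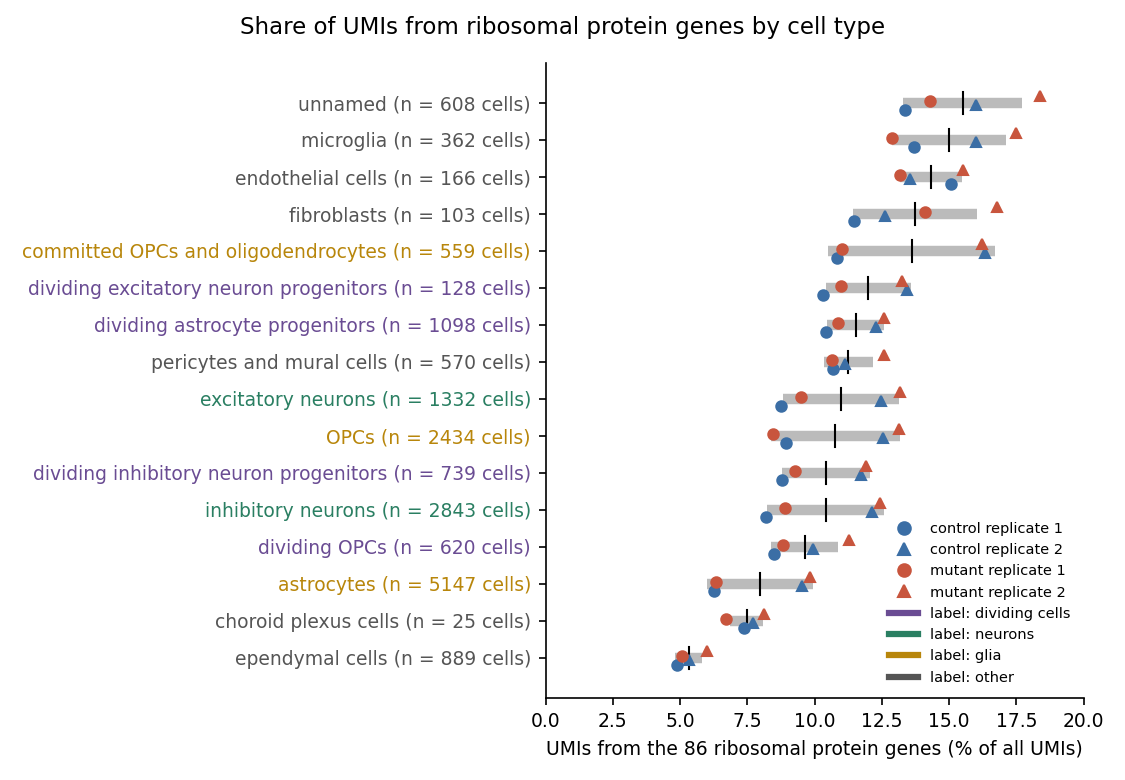
Share of UMIs from the 86 ribosomal protein genes in each cell type. Each symbol is 1 library (circles replicate 1, triangles replicate 2, blue control, red mutant), vertical lines are means over the 4 libraries, grey bars span 1 SD on each side, and label colours give the class. Astrocytes lie lowest among the glia and the committed OPCs and oligodendrocytes highest, and triangles lie to the right of circles in nearly every row.

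The classes hid large differences between their cell types. Among the 9 types that make up the classes, the mean share over the 4 libraries was highest in committed OPCs and oligodendrocytes at 13.6% (SD 3.09) and lowest in astrocytes at 7.98% (SD 1.96), although both are glia. Dividing excitatory neuron progenitors (11.99%, SD 1.58) and dividing astrocyte progenitors (11.5%, SD 1.06) came next after the former, followed by excitatory neurons (10.97%, SD 2.16), OPCs (10.8%, SD 2.40), dividing inhibitory neuron progenitors (10.4%, SD 1.63), inhibitory neurons (10.4%, SD 2.18) and dividing OPCs (9.62%, SD 1.25). Neighbours in this order differed by less than the larger of their SDs, in which the 2 replicate numbers are mixed. Outside the classes, microglia (15.01%, SD 2.12), endothelial cells (14.3%, SD 1.14), fibroblasts (13.7%, SD 2.30) and the unnamed cells (15.5%, SD 2.20) lay higher, pericytes and mural cells (11.25%, SD 0.906) lay within the range of the 9 types, and choroid plexus cells (7.47%, SD 0.599) and ependymal cells (5.32%, SD 0.494), which carry motile cilia, lay at or below the level of astrocytes.

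Gene by gene, the ribosomal protein genes were higher in dividing cells than in glia. Of 83 genes, 62 were higher at an adjusted p under 0.05 and none lower, against 22.8% of all 15877 genes tested called higher and 37.5% called lower. The median log2 difference was 0.25 for the 83 genes and −0.15 for all genes. *Rpl4*, a core protein of the large subunit, was at 554, 696, 498 and 788 CPM in dividing cells and at 330, 529, 304 and 612 CPM in glia. It was higher in dividing cells in each library (log2 difference 0.50 ± 0.09 SE, adjusted p = 0.00077). *Rpsa*, a small-subunit protein also known as the laminin receptor, was at 1658, 2537, 1457 and 2589 CPM against 1023, 1900, 920 and 1943 CPM (log2 difference 0.49 ± 0.08, adjusted p = 0.00022). *Rps27l* (0.43 ± 0.08) and *Rps6* (0.40 ± 0.09), the substrate of the S6 kinases, were also among the 5 largest rises. The genes that did not pass the test included *Rplp1* (0.09 ± 0.06), *Rpl13* (0.04 ± 0.06) and *Rpl10* (0.15 ± 0.08). Within replicate 1 alone 82 genes (5025 of all 16419) and within replicate 2 alone 78 genes (4064 of all 14355) were called higher. With the cell types of each class weighted equally, however, 18 genes were higher and 17 lower, and the median fell to 0.012. Of all 14296 genes, 4037 were called higher and 5746 lower there, so the family was called less often in each direction. Astrocytes, the type with the lowest levels, then counted as 1 of the 3 glial types rather than by their 5147 cells.

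Between dividing cells and neurons genes of the family were called in both directions, in each less often than all genes. Of the 83 genes, 21 were higher in dividing cells and 12 lower, where 33.9% of all 15877 genes were called higher and 31.8% lower, and the median log2 difference was 0.07 (−0.00047 for all genes). The paralogue *Rps27l*, a target of p53, was at 420, 359, 429 and 411 CPM in dividing cells and at 193, 211, 211 and 252 CPM in neurons, with no overlap (log2 difference 0.92 ± 0.08, adjusted p = 2.0e-06). *Rpl22l1* was at 406, 476, 420 and 511 CPM against 240, 288, 240 and 331 CPM, again with no overlap (0.75 ± 0.06, adjusted p = 1.3e-06). *Rplp1*, an acidic protein of the stalk that recruits elongation factors, was at 1979, 2508, 2004 and 2632 CPM against 1240, 1616, 1220 and 1756 CPM (0.67 ± 0.06, adjusted p = 2.3e-06). *Rpl41*, which encodes the shortest protein of the large subunit (0.48 ± 0.07), and *Rpl36al*, an intronless copy of *Rpl36a* (0.44 ± 0.06), completed the 5 largest rises.

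On the other side, *Rpl10*, whose protein is added late in the assembly of the large subunit, was at 523, 673, 563 and 793 CPM in dividing cells and 629, 978, 713 and 1178 CPM in neurons, higher in neurons of each library (log2 difference −0.41 ± 0.08, adjusted p = 0.00086). *Rps27*, the partner of *Rps27l*, was at 555, 743, 968 and 735 CPM against 659, 1105, 1177 and 1032 CPM (−0.38 ± 0.07, adjusted p = 0.00095). *Rps27rt* (−0.32 ± 0.09), *Rps7* (−0.29 ± 0.08) and *Rpl7* (−0.28 ± 0.08) were the other large falls. The balance of the 2 directions changed with the libraries and with depth. Replicate 1 alone gave 59 higher and 1 lower (6186 and 4371 of 16419 genes). Replicate 2 alone gave 25 higher and 21 lower (5450 and 3887 of 14355 genes), in each direction less often than all genes. Cells of 5000 to 15000 UMIs gave 4 higher and 36 lower (3674 and 4046 of 13976 genes).

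Neurons were higher than glia for 47 of the 83 genes and lower for 6, against 33.7% of all genes called higher and 38% called lower, with a median log2 difference of 0.20 (−0.03 for all genes). *Rpl10* led (629, 978, 713 and 1178 CPM in neurons, 402, 644, 442 and 773 CPM in glia, log2 difference 0.56 ± 0.08, adjusted p = 6.6e-05), and *Rps26* (0.50 ± 0.08) and *Rps7* (0.50 ± 0.08) were also among the 5 largest rises. *Rplp1* was lower in neurons, at 1220 to 1756 CPM against 1768 to 2442 CPM in glia (−0.58 ± 0.06, adjusted p = 4.8e-06), and the ranges did not overlap. The other genes that fell furthest were *Rps27l* (−0.49 ± 0.08), *Rpl22l1* (−0.47 ± 0.06), *Rpl13* (−0.34 ± 0.06) and *Rpl36al* (−0.26 ± 0.06). Replicate 1 alone gave 51 higher and 6 lower (5704 and 6181 of 16419 genes). Replicate 2 alone gave 60 higher and 7 lower (4925 and 5205 of 14355 genes). The median was 0.38 without control replicate 1 (0.12 for all genes) and 0.37 without mutant replicate 1 (0.14 for all genes). In cells of 5000 to 15000 UMIs the median was 0.54 (0.14 for all genes), with 76 genes higher (5654 of 13976 genes). With cell types weighted equally 23 were higher and 24 lower (5172 and 5458 of 14296 genes), in each direction less often than all genes, as in the comparison of dividing cells with glia.

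**Figure D2:**
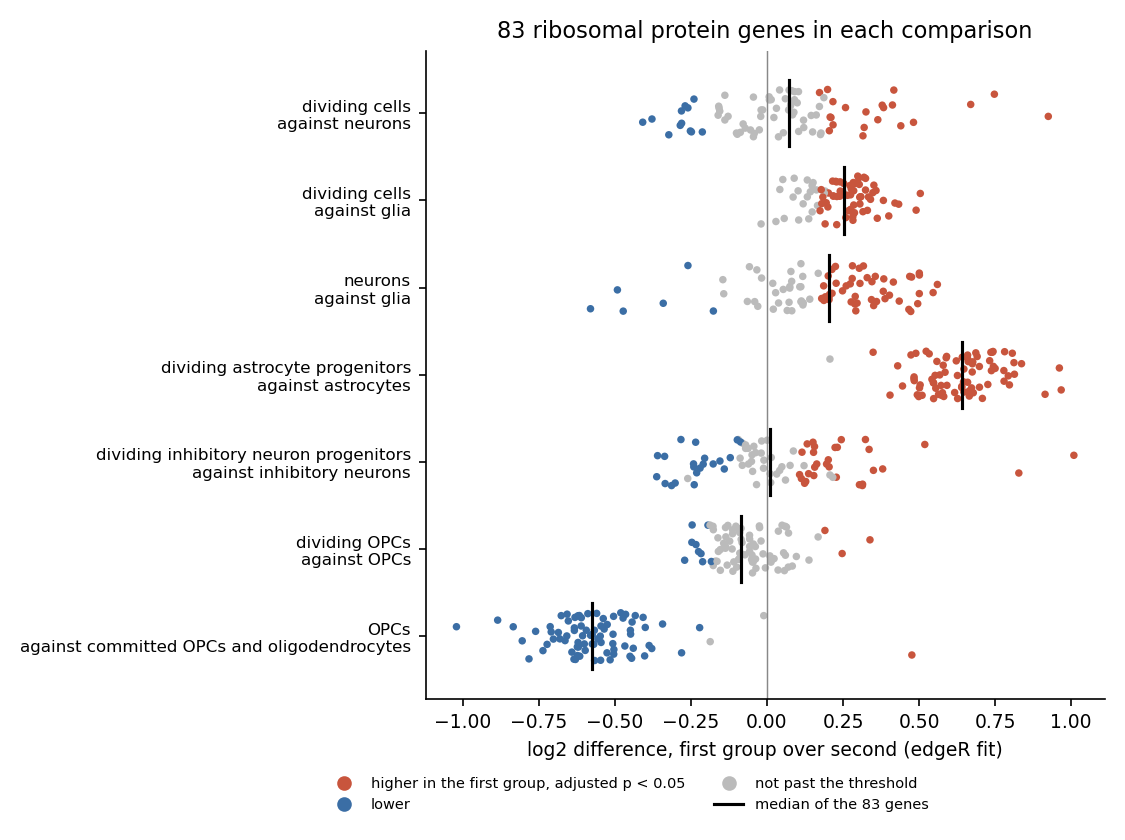
Fitted log2 difference of each of the 83 ribosomal protein genes in 7 comparisons, first group over second. Each point is 1 gene, red where higher and blue where lower at an adjusted p under 0.05, grey otherwise, and black lines are medians over the 83 genes. The points lie to the right of 0 for dividing astrocyte progenitors (median 0.64), to the left for OPCs against committed OPCs and oligodendrocytes (median −0.57) and on both sides for inhibitory neuron progenitors.

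Dividing cells were then compared with the other cells of their own lineage, which are still mixtures: astrocytes pool 6 clusters in which the family took 6.09% to 12.85% of UMIs, OPCs 3 clusters at 3.03% to 13.8% and inhibitory neurons 4 clusters at 7.27% to 9.93%. Some clusters lay mostly in 1 replicate number, such as 1 of astrocytes with 900, 4, 884 and 1 cells in the 4 libraries and another with 32, 598, 45 and 618. In the astrocyte lineage nearly the whole family was higher in the dividing cells. The share of UMIs was 10.4%, 12.3%, 10.9% and 12.6% in dividing astrocyte progenitors and 6.25%, 9.53%, 6.32% and 9.82% in astrocytes, a difference of 3.55 points (SD 0.933, 4 of 4 libraries, exact permutation p = 0.125), and of 3.38 points in cells of 5000 to 15000 UMIs. Of the 83 genes, 82 were higher and none lower, against 30.8% of 14091 genes called higher and 29.4% lower, and the median log2 difference was 0.64 (−0.01 for all genes). *Rpsa* was at 1938, 2711, 1666 and 2775 CPM in the dividing cells and at 872, 1800, 726 and 1788 CPM in astrocytes (log2 difference 0.97 ± 0.12, adjusted p = 0.00022). *Rpl4* was at 625, 719, 551 and 818 CPM against 283, 475, 241 and 535 CPM, with no overlap (0.96 ± 0.11, adjusted p = 0.00016). *Rps6* was at 706, 893, 660 and 922 CPM against 334, 616, 290 and 624 CPM (0.91 ± 0.12, adjusted p = 0.00024). *Rps2* (0.84 ± 0.11) and *Rpl14* (0.81 ± 0.10) completed the 5 largest rises, and the single gene not called was *Rps27rt* (0.21 ± 0.11, adjusted p = 0.14). Replicate 1 alone gave 83 higher and replicate 2 alone 82, and the shares of all genes called in each replicate number alone are not reported here.

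In the excitatory neuron lineage the share was 10.3%, 13.4%, 10.97% and 13.25% in the dividing progenitors and 8.77%, 12.45%, 9.49% and 13.2% in the neurons. The 128 progenitors were thus higher than the pooled neurons in 4 of 4 libraries, by 1.55, 0.98, 1.48 and 0.09 points (SD 0.673, exact permutation p = 0.125). No gene-by-gene fit was made for them. The excitatory neurons pool 3 clusters at 7.58% to 12.18%. The cluster of 395 *Eomes*-expressing precursors had 11.13%, 13.27%, 11.44% and 13.86%. It lay below the dividing progenitors in control replicate 2 and above them in the other libraries, so the direction depended on the cells pooled.

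In the inhibitory neuron lineage genes of the family were called in both directions, as all genes were. The share of UMIs was 8.78%, 11.7%, 9.26% and 11.9% in the dividing progenitors and 8.17%, 12.1%, 8.91% and 12.4% in inhibitory neurons, with a mean difference of 0.012 points (SD 0.551, higher in 2 of 4 libraries, exact permutation p = 1). Of the 83 genes, 30 were higher and 21 lower in the dividing progenitors (25.6% and 35.7% of 11533 genes), and the median log2 difference was 0.01 against −0.12 for all genes. *Rps27l* was at 366, 350, 384 and 407 CPM in the progenitors and at 171, 181, 186 and 206 CPM in inhibitory neurons (log2 difference 1.01 ± 0.06, adjusted p = 8.0e-11). *Rpl22l1* was at 344, 441, 368 and 500 CPM against 202, 254, 207 and 245 CPM (0.83 ± 0.07, adjusted p = 6.7e-09). These groups did not overlap for either gene. *Rpl41* (0.52 ± 0.04), *Rpl8* (0.38 ± 0.04) and *Rplp1* (0.35 ± 0.04) were also higher. *Rps27* was lower, at 582, 877, 1020 and 873 CPM against 708, 1218, 1259 and 1137 CPM (−0.36 ± 0.04, adjusted p = 7.6e-07), as were *Rpl38* (−0.36 ± 0.04), *Rpl36* (−0.34 ± 0.04), *Rpl7* (−0.33 ± 0.04) and *Rpl17* (−0.31 ± 0.04). Replicate 1 alone gave 54 higher and 6 lower, and replicate 2 alone 22 higher and 20 lower. The shares of all genes called in each replicate number alone are not reported here.

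In the OPC lineage the result depended on which clusters of OPCs were taken. The share of UMIs was 8.47%, 9.93%, 8.83% and 11.3% in dividing OPCs and 8.95%, 12.5%, 8.47% and 13.1% in OPCs (mean difference −1.14 points, SD 1.34, higher in 1 of 4 libraries, exact permutation p = 0.25). In the fit, 3 genes were higher and 9 lower (20.3% and 17.9% of 12035 genes), with a median log2 difference of −0.08 (−0.02 for all genes). The 3 risers were *Rps27l* (0.34 ± 0.07, adjusted p = 0.00056), *Rpl22l1* (0.25 ± 0.06, adjusted p = 0.0037) and *Rpsa* (0.19 ± 0.07, adjusted p = 0.047). The largest falls were those of *Rpl10* (433, 518, 466 and 728 CPM against 500, 810, 509 and 967 CPM, log2 difference −0.27 ± 0.08), *Rps27*, *Rpl37*, *Rpl36* and *Rpl26* (−0.25 to −0.23). The direction followed the replicate number, with 14 higher and none lower in replicate 1 alone and none higher and 56 lower in replicate 2 alone. One cluster of 457 OPCs, with a low median of 3776 UMIs, 4.38% of UMIs from *Malat1* and only 3.03% from the family, had 162, 4, 289 and 2 cells in the 4 libraries. Without it the share in OPCs was 10.05%, 12.6%, 9.81% and 13.1%, above that of dividing OPCs in 4 of 4 libraries (dividing minus other −1.77 points, SD 0.703, exact permutation p = 0.125), and 2 genes were higher and 59 lower in dividing OPCs (median −0.19). Leaving out that cluster was an alternative chosen after the data were seen. The shares of all genes called without it and in each replicate number alone are not reported here. The remaining OPCs were also mixed. A cluster of 1092 cells had shares of 7.554%, 9.382%, 7.465% and 8.558%, below dividing OPCs in each library. Another of 885 cells had 12.14%, 17.47%, 12.16% and 17.36%, above dividing OPCs in each library.

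With their 3 clusters pooled, OPCs had a lower level of the family than the committed OPCs and oligodendrocytes. The share of UMIs went from 8.95%, 12.5%, 8.47% and 13.1% in OPCs to 10.8%, 16.3%, 11.03% and 16.2% in the latter (OPCs minus the latter −2.84 points, SD 0.811, negative in 4 of 4 libraries, exact permutation p = 0.125, −1.61 points in cells of 5000 to 15000 UMIs and −2.21 points without the cluster of OPCs with a low UMI count). Of the 83 genes, 80 were lower in OPCs and 1 higher, against 28.2% of 11983 genes called lower and 30.4% called higher, and the median log2 difference was −0.57 (0.03 for all genes, and −0.36 with 0.22 for all genes without scaling beyond the total count). *Rplp1* was at 1811, 2263, 1628 and 2383 CPM in OPCs and at 3088, 3894, 3121 and 4026 CPM in the committed cells, with no overlap (−1.02 ± 0.06, adjusted p = 2.1e-09). *Rps2* (1512 to 1972 CPM against 2546 to 3139 CPM, −0.89 ± 0.06), *Rpl38* (−0.83 ± 0.06), *Rps3* (−0.80 ± 0.06) and *Rps28* (−0.78 ± 0.06) followed. The exception was *Rpl13*, a large-subunit protein gene, at 4728, 6448, 4090 and 5499 CPM in OPCs and 2704, 4354, 2338 and 3732 CPM in the committed cells, higher in OPCs of each library (0.48 ± 0.07, adjusted p = 5.2e-05). *Rpl7l1* (−0.19 ± 0.08) and *Rps19bp1* (−0.01 ± 0.10), which are not known as constituents of the ribosome, were the 2 genes that did not pass. By share of UMIs the clusters of OPCs did not all lie on the same side of the committed cells. The cluster of 885 OPCs, at 12.14%, 17.47%, 12.16% and 17.36%, lay above the committed cells in each library. The cluster of 1092 OPCs (7.554%, 9.382%, 7.465% and 8.558%) and that of 457 (2.609%, 2.154%, 3.247% and 2.547%) lay below them in each library.

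The difference between dividing and other cells itself differed between lineages. By share of UMIs, it was larger in the astrocyte lineage than in the OPC lineage by 4.70 points (SD 0.492, 4 of 4 libraries, exact permutation p = 0.125) and than in the inhibitory neuron lineage by 3.54 points (SD 0.462, 4 of 4, exact permutation p = 0.125). In 1 fit over the 6 cell types, 82 genes had a larger difference in the astrocyte than in the OPC lineage and none a smaller one (15.9% and 8.83% of 14565 genes, median 0.73 on the log2 scale against 0.08 for all genes). Against the inhibitory neuron lineage 77 were larger and 1, *Rpl22l1*, smaller (22.1% and 13.1% of genes). *Rps6* differed most between the astrocyte and the OPC lineage (1.10 ± 0.13, adjusted p = 2.0e-06). Between the inhibitory neuron and the OPC lineage 19 genes had a larger difference in the former (12.6% of genes) and none a smaller one, led by *Rps27l* (0.76 ± 0.12, adjusted p = 3.6e-05) and *Rpl22l1* (0.68 ± 0.09, adjusted p = 5.9e-06). Without mutant replicate 1 the comparison of the astrocyte with the inhibitory neuron lineage gave 32 larger and 2 smaller (1100 and 1894 of 14176 genes). Without control replicate 1 it gave 33 and 2 (1161 and 1592 of 14121 genes). In the comparison of the inhibitory neuron with the OPC lineage, 8 genes were called larger without control replicate 1 (1210 of 14121 genes). Without control replicate 2, 8 were called larger (1470 of 14826 genes). Both counts were near the share of all genes. Leaving out the OPC cluster of low UMI count and the astrocyte cluster of that kind gave 32 (1935 of 14548 genes).

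**Figure D3:**
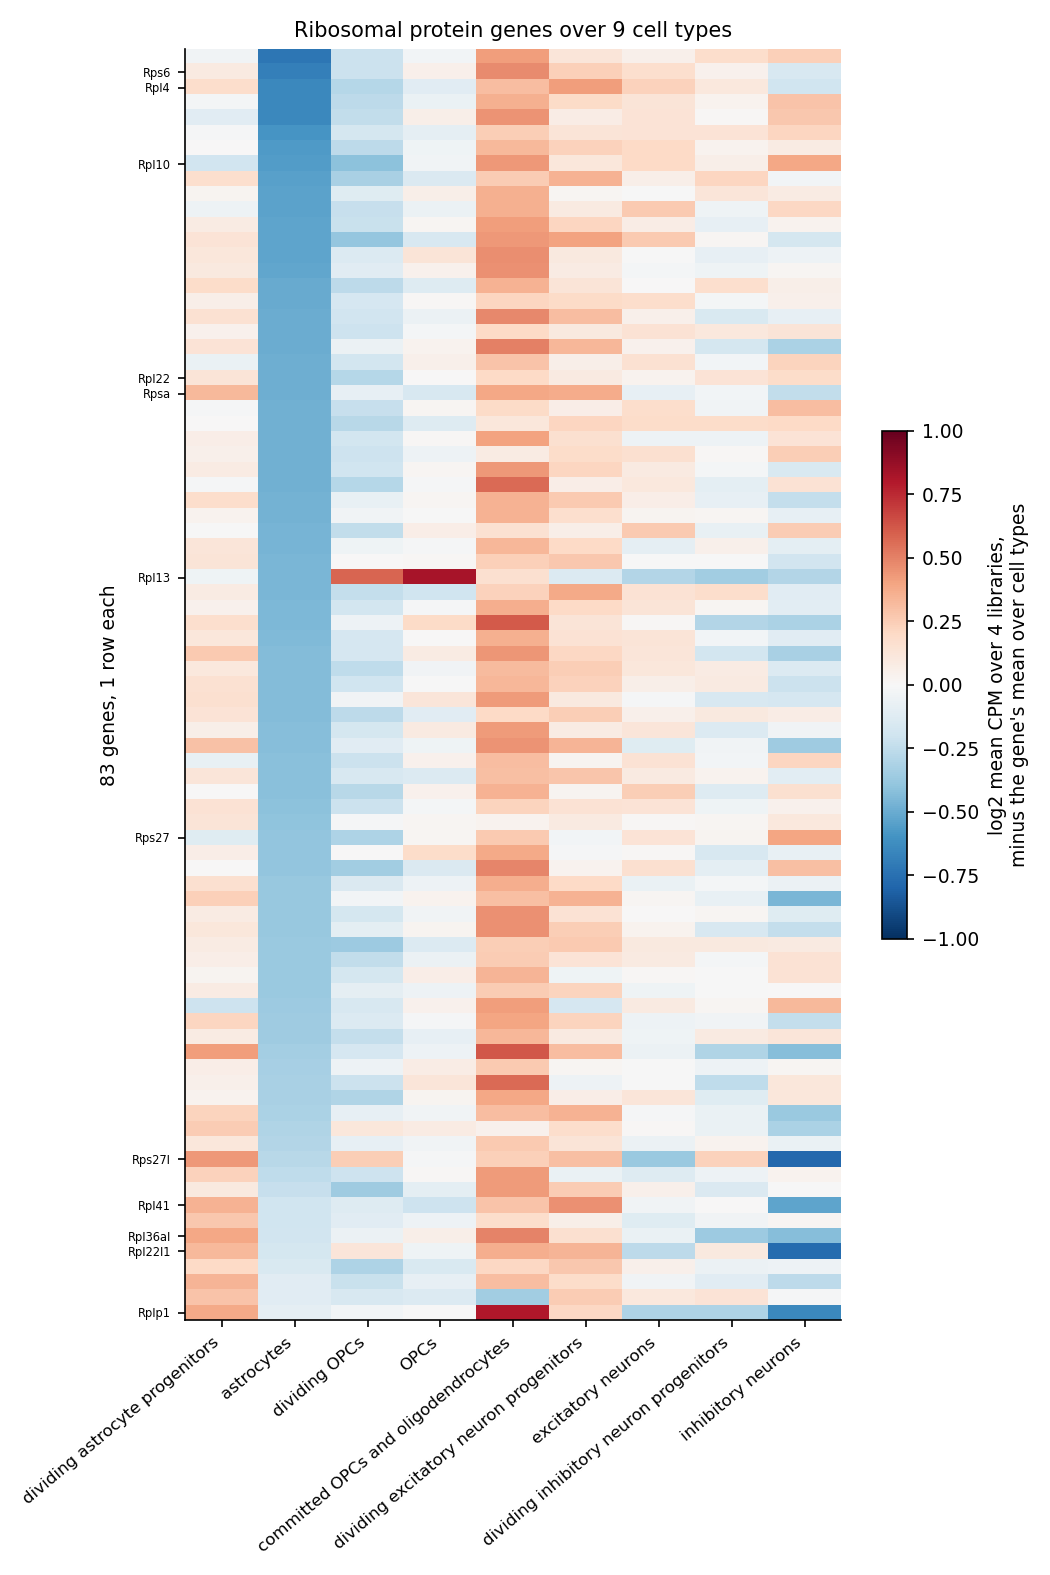
Level of each of 83 ribosomal protein genes in 9 cell types, as log2 mean CPM over the 4 libraries minus the mean of that gene over the types. Rows are ordered by the value in astrocytes, and some are labelled with their gene. The astrocyte column is blue and the column of committed OPCs and oligodendrocytes red for most rows, and *Rpl13* in OPCs, *Rps27l*, *Rpl22l1* and *Rplp1* in inhibitory neurons stand out from the rows around them.

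Most of the 83 genes had the same types at the extremes. For 61 of the 83 genes the mean CPM was highest in committed OPCs and oligodendrocytes, and for 70 it was lowest in astrocytes. How often all genes had these types at the extremes is not reported here, so these counts do not set the family apart. Few committed cells came from the libraries of replicate 2, with 44 in the control and 59 in the mutant. The ratio of the highest to the lowest type had a median of 1.76 and a range from 1.38 (*Rpl23a*) to 2.72 (*Rplp1*), and it exceeded 2 for 11 genes. *Rpl13* was the gene highest in OPCs, where its mean was 5191 CPM (SD 1017) against 2140 CPM (SD 633) in astrocytes. *Rplp1*, *Rps27l* and *Rpl22l1* were lowest in inhibitory neurons, where *Rplp1* was at 1062, 1460, 1080 and 1584 CPM.

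When each gene was expressed as a share of the family's own UMIs, so that the level of the family as a whole is removed, the composition was similar between dividing cells and glia: 80 of 83 genes lay within 0.25 on the log2 scale and none beyond 0.5. Between dividing cells and neurons 58 lay within 0.25, and 3 exceeded 0.5 in dividing cells, *Rps27l*, *Rpl22l1* and *Rplp1*. Between neurons and glia 64 lay within 0.25 and 4 lay below −0.5, of which *Rplp1* (−0.76, SD 0.035), *Rps27l* (−0.67, SD 0.10) and *Rpl22l1* (−0.65, SD 0.045) were the furthest.

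The paralogue pairs were compared as the ratio of their UMIs, which gives the change of 1 partner against the other and not their relative abundance, since 3′ capture differs between genes. For *Rps27l* over *Rps27* the ratio was 0.758, 0.482, 0.443 and 0.559 in dividing cells, 0.293, 0.191, 0.180 and 0.244 in neurons and 0.588, 0.385, 0.347 and 0.407 in glia. It was 2.47-fold higher in dividing cells than in neurons (log2 difference 1.30, SD 0.077, 4 of 4 libraries, exact permutation p = 0.125) and 1.30-fold higher than in glia (4 of 4). Within lineages it was higher in the dividing cells of each library, by 2.60-fold for inhibitory neurons, 1.76-fold for excitatory neurons, 1.49-fold for OPCs and 1.35-fold for astrocytes (exact permutation p = 0.125 each). The control library of replicate 1 had the highest ratio in each class, and its *Rps27* level was also the lowest in each class (467 CPM in glia against 745 to 825 CPM in the other libraries).

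For *Rpl22l1* over *Rpl22* the ratio was 0.552, 0.684, 0.541 and 0.724 in dividing cells, 0.342, 0.374, 0.312 and 0.413 in neurons and 0.609, 0.644, 0.592 and 0.689 in glia. It was 1.73-fold higher in dividing cells than in neurons (log2 difference 0.79, SD 0.073, 4 of 4 libraries, exact permutation p = 0.125), and its mean against glia was 0.981-fold, higher in 2 of 4. By lineage the ratio was higher in dividing cells by 1.87-fold for inhibitory neurons, 1.47-fold for excitatory neurons and 1.38-fold for OPCs (4 of 4 libraries each), and in astrocytes it was 0.925-fold, higher in 1 of 4. For *Rpl36al* over *Rpl36a* it was 1.20-fold higher in dividing cells than in neurons in 4 of 4 libraries, but in no lineage in 4 of 4. For the remaining pairs 1 partner was at or near 0, as given above, or is listed with *Rpl7l1*.

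**Figure D4:**
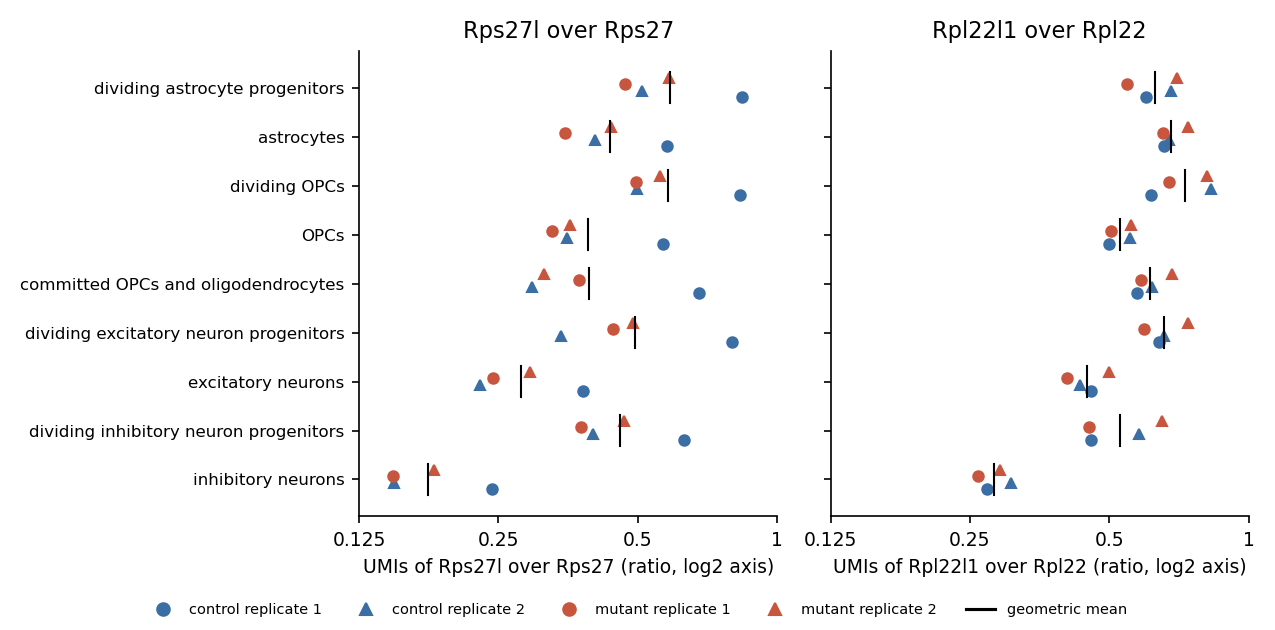
Ratio of UMIs of *Rps27l* over *Rps27* (left) and of *Rpl22l1* over *Rpl22* (right) in 9 cell types, on log2 axes. Each symbol is 1 library and black lines are geometric means. Inhibitory neurons lie lowest in both panels, and each dividing type lies to the right of the matching neurons or OPCs.

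Other well described members were examined by a fixed list. *Rplp0*, the anchor of the stalk, and *Rplp2*, the partner of *Rplp1*, were higher in dividing cells than in glia (0.32 ± 0.08 and 0.24 ± 0.07) and in dividing astrocyte progenitors than in astrocytes (0.78 ± 0.11 and 0.66 ± 0.11). Against neurons, *Rplp2* was higher in dividing cells (0.26 ± 0.07, adjusted p = 0.0089) while *Rplp0* did not pass (0.09 ± 0.08, adjusted p = 0.31). *Rpl5* and *Rpl11*, whose proteins join 5S RNA and can bind Mdm2, were higher in dividing astrocyte progenitors (0.57 ± 0.10 and 0.53 ± 0.09), and in dividing cells against neurons gave −0.04 ± 0.07 and −0.10 ± 0.07, neither past the test. *Rpl38*, known for its part in translating Hox mRNAs, was lower in dividing cells than in neurons (−0.27 ± 0.07, adjusted p = 0.0073). *Rpl10a* and *Rps25*, known for their part in translating particular mRNAs, were higher in dividing cells than in glia (0.25 ± 0.07 and 0.38 ± 0.08) and gave 0.07 ± 0.07 and 0.09 ± 0.08 against neurons.

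The other genes of the pathway were taken from lists. *Fau* and *Rack1*, ribosomal genes outside the symbol rule, were both higher in dividing cells than in glia, in neurons than in glia and in dividing astrocyte progenitors than in astrocytes, both lower in OPCs than in committed OPCs and oligodendrocytes, and neither was called between dividing cells and neurons. For *Rack1* the log2 difference in the astrocyte lineage was 0.78 ± 0.11 (adjusted p = 0.00035). Factors that assemble ribosomes were higher in dividing astrocyte progenitors for 30 of 30 genes (median 0.83), beside 30.8% of all genes. They were led by *Nop58* (1.67 ± 0.15, adjusted p = 3.5e-05) and *Nop56* (1.47 ± 0.15), both of the box C/D particles that methylate ribosomal RNA. Against neurons the assembly factors were higher in dividing cells for 17 of 30 and lower for none, beside 33.9% and 31.8% of all genes. Against glia 19 were higher and 1, *Polr1d*, lower, beside 22.8% and 37.5% of all genes. Between dividing cells and neurons 21 of 83 ribosomal protein genes were called higher, fewer than the share of all genes. The contrast of the lists was not itself tested.

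Mitochondrial ribosomal proteins had the opposite balance of calls to the cytosolic ones between neurons and glia, a contrast of the 2 lists that was not itself tested. Of 78 genes, 50 were higher and 3 lower in dividing cells against neurons (median 0.25), 33 higher and 8 lower against glia (median 0.15), and 14 higher and 36 lower in neurons against glia (median −0.15), where the cytosolic genes had 47 higher and 6 lower. The 36 of 78 lower in neurons stand beside 38% of all genes and the 14 higher beside 33.7%. For dividing cells the 50 and 3 against neurons stand beside 33.9% and 31.8%, and the 33 and 8 against glia beside 22.8% and 37.5%. In the lineages, 65, 40 and 17 were higher and 0, 0 and 6 lower in dividing astrocyte progenitors, inhibitory neuron progenitors and OPCs. Of all genes, 30.8%, 25.6% and 20.3% were called higher there and 29.4%, 35.7% and 17.9% lower, so the 17 of 78 in OPCs were near the share of all genes. Of 29 initiation factors, 20 were higher and 2 lower in dividing cells against glia, beside 22.8% and 37.5% of all genes. Against neurons 13 were higher and 8 lower, beside 33.9% and 31.8% of all genes, and *Eif4a2* (−1.12 ± 0.06, adjusted p = 1.0e-07), the neuronal form of the helicase, was the lowest. Of 9 elongation factors, 4 were higher and 2 lower against neurons, beside the same shares of all genes, with *Eef1d* the highest (1.30 ± 0.07) and *Eef1a2*, the form of neurons and muscle, the lowest (−2.04 ± 0.26). Of 10 other transcripts with a TOP tract, 7 were higher in dividing cells than in glia, beside 22.8% of all genes. Against neurons 3 were higher and 3 lower, beside 33.9% and 31.8% of all genes, from *Gas5* (−0.77 ± 0.06) to *Vim* (1.28 ± 0.11). Among 10 regulators, *Eif4ebp1*, the mTOR target that blocks the cap-binding protein *Eif4e*, was higher in dividing cells than in neurons (2.81 ± 0.18, adjusted p = 1.9e-07), and *Mycn* was higher than in glia (2.04 ± 0.21, adjusted p = 1.4e-05) but lower than in neurons (−0.94 ± 0.20, adjusted p = 0.0017).

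The last comparison asked whether the *Chd8* mutation was accompanied by a change in the family. By share of UMIs, the mutant minus control difference was 0.351 points in dividing cells, 0.634 in neurons and 0.472 in glia (exact permutation p = 0.667 each, where 2 against 2 libraries cannot go below 0.333). It was positive within both replicate numbers in each class, as the shares given above show, and each of these differences was smaller than the gap of more than 2 points between the libraries of 1 genotype. By gene, edgeR called 0 of the 83 genes in each class, and 0% of 14646, 14278 and 16749 genes in either direction. DESeq2 also called none, and at an unadjusted p under 0.05 edgeR had 8, 5 and 16 genes in dividing cells, neurons and glia, none of them a ribosomal protein gene. In simulated data this design recovered 0 of 100 genes changed by 1.5-fold and 0 of 98 changed by 2-fold in glia. Changes of this size were thus not detectable with it. The fit with a replicate block recovered 22 of 100 and 84 of 100 in a separate simulation, whose spread was estimated with the block. Neither simulation held a difference between replicate numbers, so these recoveries do not compare the fits on the same data. With a replicate block 4 genes were called in neurons, all higher in the mutant (of 14278 genes, 0.091% were called higher and 0.252% lower): *Rpl38* (0.60, adjusted p = 0.016), *Rpl39* (0.56, adjusted p = 0.023), *Rps28* (0.55, adjusted p = 0.042) and *Rps29* (0.55, adjusted p = 0.047). None was called with the block in dividing cells (0% of genes either way) or glia (0.275% and 0.239%), and the test of whether the genotype difference differed between classes called 0 genes (0%) by edgeR and by DESeq2 (278, 91 and 240 genes at an unadjusted p under 0.05 by edgeR, no ribosomal protein gene among them).

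**Figure D5:**
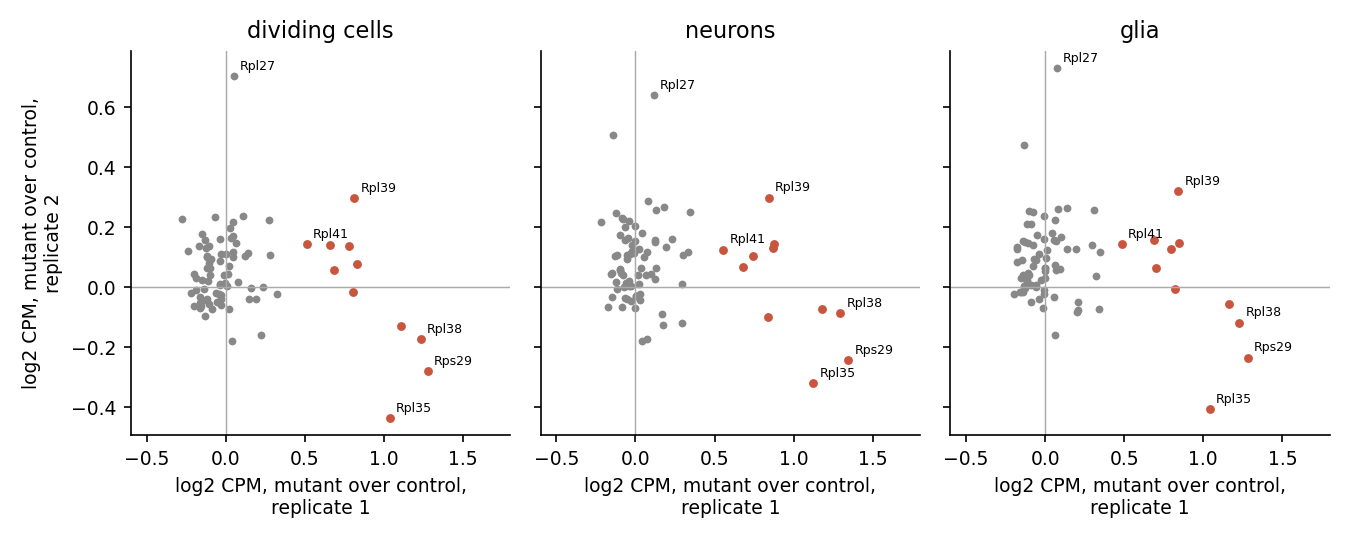
Log2 CPM of mutant over control within replicate 1 (x axis) and within replicate 2 (y axis) for each of 83 ribosomal protein genes, in dividing cells, neurons and glia. Red points are the 11 genes that were low in control replicate 1, chosen for their value in glia of replicate 1. Red points lie between 0.48 and 1.35 on the x axis while on the y axis they lie on both sides of 0, and *Rpl27* stands apart on the y axis.

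For these genes control replicate 1 stood apart from the other 3 libraries. In neurons *Rpl38* was at 505, 1320, 1240 and 1243 CPM, and *Rps28* at 504, 1328, 1140 and 1263 CPM with control replicate 1 the lowest of the 4. In glia *Rps29* was at 680, 1740, 1655 and 1479 CPM, and *Rpl35* at 175, 587, 359 and 443 CPM. A group of 11 genes (*Rpl41*, *Rpl37a*, *Rpl36*, *Rps21*, *Rps27*, *Rpl39*, *Rpl37*, *Rpl35*, *Rps28*, *Rpl38* and *Rps29*), picked after their values were seen because they differed by more than 0.4 on the log2 scale in glia of replicate 1, had differences of 0.51 to 1.28 in dividing cells, 0.55 to 1.35 in neurons and 0.48 to 1.28 in glia. In replicate 2 the same genes gave −0.41 to 0.32 in glia, with a median of 0.06. The other 72 genes had a median of −0.04 in glia of replicate 1. The spliced length of the 11 genes was 345 to 946 bases (median 394) against a median of 845.5 bases for the others. Outside the family, 4 genes under 400 bases were at 50 CPM or more in glia. Their median log2 difference of mutant over control was 1.23 in replicate 1 and −0.98 in replicate 2. These ratios do not show which library was low. The 11 genes took 0.646%, 1.27%, 1.17% and 1.30% of UMIs in glia. In glia the family had a lower share in control replicate 1 than in mutant replicate 1 (7.15% and 7.59%), and the other members did not (6.50% and 6.42%). Because the 11 genes were picked by their values in these same libraries and cells, this contrast follows largely from the choice. In control and mutant replicate 1 the other members took 8.72% and 8.48% in dividing cells and 7.68% and 7.75% in neurons. *Rpl27* showed the reverse, being low in control replicate 2 alone (990, 644, 1042 and 1069 CPM in glia, log2 difference 0.73 in replicate 2). Whether transcript length or another property of the libraries sets these values was not tested.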

How the data were processed

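The authors aligned the reads to mm10 with Cell Ranger and deposited, for each of 4 libraries, a matrix of raw UMI counts per gene and barcode, without normalization. Each held 6107 to 7279 barcodes. The version is 7.0.0 in the study's methods, 3.0 in the submitters' processing notes, and 7.0.0 or 5.0.1 in the matrix headers. Genotype and replicate number came from the labels of the samples. The ribosomal protein genes, the gene lists and the comparisons were chosen with earlier results of these data known.

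Cells passing the filters were clustered on 2000 variable genes, after scaling inside each library (scanpy 1.11.5, leidenalg 0.10.2, 30 components, 15 neighbours, resolution 1) in Python 3.11.15 with numpy 2.4.6, scipy 1.17.1 and pandas 2.3.3. Clusters were named from fixed markers, with at least 3 found in 10% of cells, and the score limits were set after the cells were examined. Doublets were kept; Scrublet called 2.42%, 0.202%, 2.79% and 0.64% of cells, too few in control replicate 2 for the calls to be relied on there. Counts were summed per class or cell type and library. The test was that of edgeR 4.0.16 under R 4.3.3 (quasi-likelihood, filterByExpr, TMM scaling, Benjamini-Hochberg over all genes tested), with library as a term for cell types and genotype alone for genotypes. The 3 classes entered 1 fit. The fit that compares lineages was added after the data were seen. CPM values are counts per 1e6 UMIs, and ± gives the standard error of the fitted log2 difference. No source states that the replicate number of a control and a mutant library marks a shared litter or day. Shares and ratios were compared by two-sided exact permutation over the signs of 4 libraries or over 2 against 2 libraries, and p-values measure the spread between pooled libraries. Each lineage share comparison is 1 of 8, each paralogue ratio 1 of 24 and each class share 1 of 3, and none of these exact p-values is below 0.125 before adjustment.

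Named genes were paralogue pairs, well described members and, in each comparison, up to 5 with the largest rise and fall past the threshold; genes named for control replicate 1 fall outside this rule, and some genes it selects are not reported here. The fits were tested on simulated data with 200 genes changed, and recovered 53% of genes changed by 1.5-fold and 97% of genes changed by 2-fold between dividing cells and neurons. Spliced lengths are means over principal coding transcripts. The alternatives were DESeq2 1.42.0, no scaling, no filter on low counts, each library left out, each replicate number alone, a replicate block, other filters on cells and clusterings, clusters of low UMI count or of 1 replicate number left out (both added after the data were seen), and cell types weighted equally. Protein sequences were not used here.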

Additional observations from a re-analysis of the deposited data

Results flagged for a closer look

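The difference between dividing and other cells differed between lineages by a test of the difference itself, in the fit of edgeR over 6 cell types and 4 libraries. For 78 of the 83 ribosomal protein genes it differed between the astrocyte and the inhibitory neuron lineage, 77 with the larger rise in the astrocyte lineage and *Rpl22l1* with the smaller one. For 82 genes it differed between the astrocyte and the OPC lineage, each larger in the astrocyte lineage, and the gene not called was *Rps27rt* (0.39 ± 0.16, adjusted p = 0.088). For 19 genes it differed between the inhibitory neuron and the OPC lineage, each larger in the former. Of all 14565 genes, 22.1%, 15.9% and 12.6% were called in the same directions.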

How the results depend on the processing

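Of the main results, 221 values kept their direction and their side of the threshold (or lay within 1.5 times the count), 21 moved, 11 reversed and 2 became stronger, and of the values for single genes and medians 763 kept, 40 lost significance, 30 moved and 6 reversed. For dividing cells against neurons, 33 genes called became 56 without a filter on low counts, 60 in replicate 1 alone, 52 with cell types weighted equally and 20 to 32 with a library left out (20 without control replicate 2). The median log2 difference ran from −0.025 (without control replicate 1) to 0.12 with a library left out, and was −0.017 at a cluster resolution of 2 and −0.22 in cells of 5000 to 15000 UMIs. The share difference turned to −0.223 points at a resolution of 2 and to −0.901 in those cells, and ran from −0.101 (without control replicate 1) to 0.495 with a library left out. It was 0.591 at a mitochondrial limit of 5% and 0.754 with the *Eomes* cluster counted as dividing. It was 0.632 when ribosomal protein genes were allowed among the 2000 variable genes for clustering. Of the ribosomal protein genes 0 were chosen, so this setting cannot show whether they shape the classes. At a resolution of 2 a cluster of 265 cells, with a score above the limit for dividing cells, stayed unnamed and so outside the classes. The family took 12.7% of its UMIs. With cell types weighted equally, 62 genes called between dividing cells and glia became 35, with a median of 0.012 and a share difference of 0.109 points, and for neurons against glia the median became −0.023 and the share difference −0.0959 points. *Rpl36al* turned to 0.078 between neurons and glia in cells of 5000 to 15000 UMIs. Inhibitory neuron progenitors gave 33 to 46 genes with a library left out (51 with all, 33 without control replicate 2). For dividing OPCs, 12 genes became 61 (2 higher, 59 lower) without the cluster of low UMI count, which was also the OPC cluster with over 90% of its cells in 1 replicate number, 33 without scaling, 21 without a filter, 56 in replicate 2 alone and 4 to 39 with a library left out (39 without mutant replicate 1, 5 without control replicate 2, 4 without mutant replicate 2), and the median was 0.071 in replicate 1 alone. The comparison of the astrocyte with the inhibitory neuron lineage ran from 34 to 77 genes. That of the inhibitory neuron with the OPC lineage ran from 8 to 21 (12 without mutant replicate 2). It gave 32 when clusters of low UMI count and 33 when clusters of 1 replicate number were left out. The counts of 8 were near the share of all genes. Otherwise the counts in this paragraph are not set beside the shares of all genes. The cause of these changes was not tested.

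With the replicate block 4 genes were called for genotype in neurons, and 2 when excitatory neurons were taken alone, against 0 without it, and it changed no other call. For excitatory neurons alone the share of all genes called is not reported here. The block left the share differences at 0.351, 0.634 and 0.472 points in dividing cells, neurons and glia (SD 0.0787, 0.115 and 0.0469, exact permutation p = 0.5 each, the smallest that 2 pairs allow). Same-numbered libraries deviated together from their group means, with correlations across all genes of 0.902, 0.889 and 0.900 and across the ribosomal protein genes of 0.221, 0.195 and 0.245 in dividing cells, neurons and glia, but with 2 pairs the data cannot show pairing. With a library left out the genotype differences ran from −0.832 to 1.53 points in dividing cells, from −1.32 to 2.58 in neurons and from −1.16 to 2.10 in glia. They were −0.777 and −1.23 without mutant replicate 2 in dividing cells and neurons, −1.13 without control replicate 1 in glia, and −0.333 for dividing cells of 5000 to 15000 UMIs. Each genotype had 2 pooled libraries, counted with another software version in each replicate number, and the parts of counting and of library spread in these differences were not separated.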
